A study of Mus musculus with 16 samples.

Results

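The genes described here are 26 genes of cholesterol synthesis and of the SREBP2 pathway that controls it, measured in the livers of 16 mouse offspring with 1 two-colour Agilent array for each animal. They were chosen by name: 18 enzymes that lead from acetyl-CoA to cholesterol, 4 regulators (Srebf2, Scap, Insig1 and Insig2) and 4 genes of sterol transport or esterification (Stard4, Npc1, Npc1l1 and Soat2). Of several probes to 1 gene, the brightest in the liver channel on average was used. Msmo1 is listed on the array under its older name, Sc4mol. Of the 26 genes, 25 gave a liver signal well above background on all 16 arrays and were tested together with all other detected genes, 18707 in total. Npc1l1, which takes up sterols in the gut, reached that level on 1 of 16 arrays (mean red signal 95.4) and was not tested.

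The animals were offspring of time-mated C57BL/6BomTac mice that were exposed whole-body for 1 h per day, from gestation day 8 to 18, to about 42 mg/m3 of UV-Titan (nano-sized titanium dioxide with a coated surface) or to filtered clean air as the control. The groups were female UV-Titan (5 livers), female control (3), male UV-Titan (4) and male control (4). The study sampled litters on postnatal day 2 and on postnatal days 23 to 24, and the sample labels do not say which age or litter each liver came from. The exposure was given to the dam, not to the offspring, so litter is the exposed unit and p-values here measure the spread between the livers, some of which may share a litter. Each liver RNA was hybridised against a universal mouse reference RNA, so a level is given as a log2 ratio of liver (red) over reference (green), and a difference between groups is a difference of such log2 ratios.

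Across the arrays, 57.7% to 67.1% of spots that were not controls had a liver signal well above background. The number of arrays limits the precision. The median log2 ratio of 12 hepatocyte markers lay between 4.68 and 6.03 on every array. Markers of exocrine pancreas stood apart in male control 31 and 33: the mean log2 ratio of the 11 tested markers ranged from 0.712 to 0.941 in male UV-Titan livers and from 0.761 to 3.67 in male control livers. Skeletal muscle markers stood apart in male UV-Titan 5, with a mean of the 8 tested markers of up to 1.43 in male UV-Titan livers, against at most -1.16 in male control livers. The median over the 25 genes in comparisons with males, and the male differences of Hsd17b7, Npc1 and Soat2, are also given without these 3 arrays.

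As background, cells make cholesterol from acetyl-CoA through mevalonate, farnesyl diphosphate, squalene and lanosterol. When sterols in the endoplasmic reticulum are low, the escort protein SCAP carries SREBP2 to the Golgi, where it is cut, and the released part enters the nucleus and switches on the genes of the whole route. INSIG proteins hold SCAP and SREBP2 back when sterols are plentiful. SREBP2 usually acts together with the factors NF-Y and Sp1 at the promoters of its targets, and the liver is a main site of this synthesis.

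On average over the 16 arrays, 20 of the 25 genes had a higher signal in liver than in the reference RNA and 5 a lower one. The log2 ratio was 3.35 for Tm7sf2, a sterol reductase, 3.06 for Sc5d, the sterol desaturase, and 2.17 for Hmgcs1. At the other end it was -1.02 for Srebf2, -0.77 for Mvd, -0.22 for Mvk, -0.19 for Pmvk and -0.024 for Sqle. These ratios depend on the reference RNA as well and do not rank the genes by abundance in liver. The probe of Msmo1 lies at chr8:63138214-63138273, that of Fdps at chr3:89208691-89208831 and that of Insig1 at chr5:27110161-27110220 in build mm7, as the array files place them. Enzymes had 17 further probes, whose r with the probe used was 0.185 to 0.987 and over 0.5 for 13. Those not over 0.5 were 1 dimmer probe each of Fdft1 (0.185), Hmgcs1 (0.203), Sc5d (0.413) and Fdps (0.453). The other further probe of Hmgcs1 had 0.760.

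The synthesis enzymes varied together from liver to liver, and the median correlation between them was near 0 in the signal of the reference RNA. Group means were subtracted from each gene, and Pearson's r was taken over the 16 arrays for every pair of the 18 enzymes, which makes 153 pairs. The median r was 0.579 by log2 ratio, with 142 pairs above 0 and 96 over 0.5, against a median of 0.012 over all pairs of 18679 genes, of which 51.4% were above 0 and 7.62% over 0.5. Spearman's rho gave a median of 0.529. In the liver channel alone, after quantile normalisation, the median r was 0.501 with 149 of 153 pairs above 0, while 10.4% of all gene pairs were over 0.5. In the reference channel alone, where every array received the same RNA, the median r of the same pairs was -0.019 and 74 of 153 were above 0. Single pairs there reached high values of both signs, from -0.953 for Mvd and Sc5d to 0.851 for Msmo1 and Hsd17b7. Of the enzyme pairs 12.4% were over 0.5 in that channel, against 15.3% of all gene pairs. The points of each correlation share the 16 arrays, and these values are a description with no test.

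**Figure D1:**
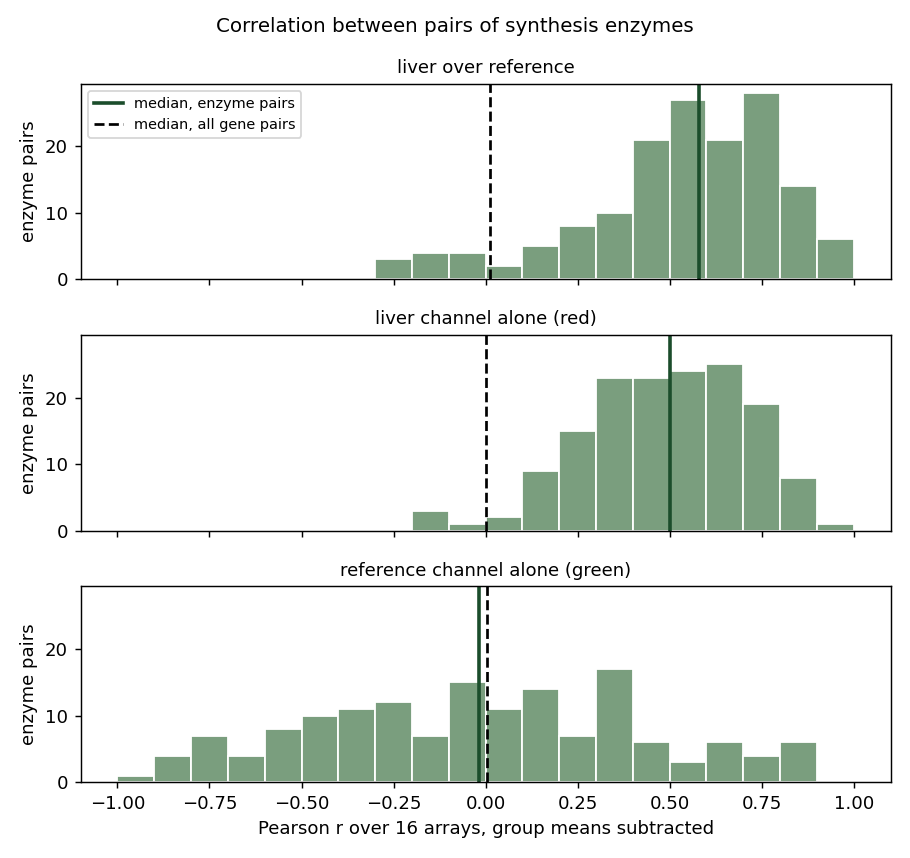
Pearson r of the 153 pairs of synthesis enzymes over 16 arrays, after subtraction of group means (x axis), with the number of pairs in each bin (y axis). The solid line is the median of the enzyme pairs, at 0.579 by ratio, 0.501 by liver signal and -0.019 by reference signal, and the dashed line is the median of all gene pairs, near 0 in each panel.

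By log2 ratio, Acat2 stood apart from the other enzymes. This cytosolic thiolase joins 2 acetyl-CoA molecules at the start of the route. Its pairs had a median r of -0.089 by ratio, with 6 of 17 above 0. In the liver channel Acat2 stood apart less. Its pairs there ran from -0.189 with Mvk to 0.695 with Sc5d, and its r with the enzyme mean was 0.327. The 136 pairs among the other 17 enzymes were all above 0 by log2 ratio, with a median of 0.603, a split made after the values were seen. Acat3, a close copy of Acat2, has a probe of its own on the array, and how far the 2 genes share signal was not tested.

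Among the enzymes from acetyl-CoA to farnesyl diphosphate, the closest to the mean of the other enzymes was Fdps, which makes farnesyl diphosphate (r = 0.935 by ratio and 0.868 in the liver channel). The log2 ratio of Fdps, here and below in order of animal number within a group, was 0.18, 0.07, 0.07, 0.32 and 0.22 in female UV-Titan livers and 0.24, 0.16 and -0.11 in female control livers. It was 0.29, 0.56, 0.55 and 0.16 in male UV-Titan livers and 0.24, 0.10, 0.03 and 0.68 in male control livers. Male control 43 was the highest of the 16 and female control 40 the lowest, and the UV-Titan and control livers overlapped in both sexes. Hmgcs1, which makes HMG-CoA, had an r of 0.844 by ratio and 0.845 in the liver channel. Its log2 ratio was 2.36, 2.01, 2.27, 2.23 and 2.13 in female UV-Titan livers and 2.26, 1.94 and 1.93 in female control livers. In males it was 2.22, 2.41, 2.25 and 2.21 in male UV-Titan livers and 2.12, 1.82, 1.87 and 2.74 in male control livers, so that male control 43 was again the highest liver. Idi1, the isopentenyl diphosphate isomerase, had an r of 0.831 and 0.854. Its log2 ratio was 1.78, 1.46, 1.70, 1.47 and 1.53 in female UV-Titan livers and 1.49, 1.91 and 1.08 in female control livers, and 1.74, 1.86, 1.64 and 1.44 in male UV-Titan livers and 1.70, 1.50, 1.32 and 2.28 in male control livers. The same pair of control livers held the highest and the lowest Idi1 value. The kinases Mvk (r = 0.776) and Pmvk (0.673) and the decarboxylase Mvd (0.747), which turn mevalonate into isopentenyl diphosphate, followed. The values of Acat2 spanned little: 1.53, 1.66, 1.33, 1.48 and 1.37 in female UV-Titan livers and 1.42, 1.45 and 1.34 in female control livers, and 1.39, 1.37, 1.52 and 1.47 in male UV-Titan livers and 1.43, 1.33, 1.48 and 1.38 in male control livers. Its residual SD within groups was 0.092 by ratio, the lowest of the 25 genes, and 0.255 in the liver channel. Its r with the enzyme mean was 0.0024 by ratio and 0.327 in the liver channel.

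In the step from farnesyl diphosphate to lanosterol, Lss, the lanosterol synthase that closes the sterol rings, had an r of 0.861 with the mean of the other enzymes. Sqle, the squalene epoxidase, had 0.807 and Fdft1, the squalene synthase, 0.699. The log2 ratio of Lss was 0.68, 0.51, 0.36, 0.71 and 0.57 in female UV-Titan livers and 0.50, 0.40 and 0.32 in female control livers. Male values of Lss were 0.56, 0.89, 0.86 and 0.32 in male UV-Titan livers and 0.52, 0.50, 0.26 and 1.09 in male control livers. Male control 43 was highest, followed by male UV-Titan 4 and 5, and male control 41 was lowest.

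The enzymes that turn lanosterol into cholesterol included the gene closest to the mean of all others. Msmo1, the sterol C4-methyl oxidase, had an r of 0.948 by ratio and 0.950 in the liver channel. It had a log2 ratio of 0.55, 0.16, 0.25, 0.41 and 0.41 in female UV-Titan livers and 0.32, 0.34 and -0.04 in female control livers. In males Msmo1 was at 0.28, 0.64, 0.36 and 0.25 in male UV-Titan livers and 0.60, 0.15, -0.05 and 0.90 in male control livers. Its lowest livers were male control 41 and female control 40 and its highest male control 43, and the groups overlapped in both sexes. Nsdhl, which acts with Msmo1 in removing the C4 methyl groups, followed it most closely of all pairs by ratio (r = 0.956, and 0.764 in the liver channel). In the liver channel the closest pair was Fdps and Nsdhl, also at 0.956, but this pair was at 0.823 in the reference channel as well. Msmo1 and Nsdhl were at -0.075 in the reference channel. Cyp51, the lanosterol demethylase, was at 0.33, 0.06, 0.24, 0.39 and 0.31 in female UV-Titan livers and 0.35, -0.03 and -0.13 in female control livers, and at 0.24, 0.52, 0.45 and 0.27 in male UV-Titan livers and 0.34, 0.19, 0.09 and 0.81 in male control livers. Its r with the enzyme mean was 0.879. Dhcr7 (r = 0.707), Hsd17b7 (0.683), Tm7sf2 (0.614), Ebp (0.555) and Sc5d (0.522), which carry out the remaining reductions, isomerisation and desaturation, lay lower. In all, 17 of 18 enzymes had an r over 0.5 with the mean of the others by ratio, 15 of 18 in the liver channel, and 3 of 18 in the reference channel (Fdps at 0.741, Nsdhl at 0.717 and Cyp51 at 0.654). Those not over 0.5 in the liver channel were Hsd17b7 at 0.480, Mvk at 0.420 and Acat2 at 0.327.

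The regulators differed from each other. Insig1, a retention factor and itself a known SREBP2 target, followed the enzymes (r = 0.811 by ratio and 0.705 in the liver channel) and had the largest spread within groups of all 25 genes, with a residual SD of 0.37. Its log2 ratio was 0.21, 0.42, 0.46, 0.63 and 0.35 in female UV-Titan livers and -0.14, 0.33 and -0.21 in female control livers. It was -0.12, 0.38, 0.43 and 0.22 in male UV-Titan livers and 0.66, -0.05, -0.37 and 0.98 in male control livers and was thus highest in male control 43 and lowest in male control 41. Insig2, the second retention factor, did not share this order (r = -0.191 and -0.148). Its values were -0.21, -0.14, 0.17, -0.17 and 0.29 in female UV-Titan livers and -0.28, -0.10 and 0.16 in female control livers, and 0.05, 0.05, 0.05 and -0.34 in male UV-Titan livers and 0.09, 0.50, -0.03 and 0.13 in male control livers. For Insig2 the highest liver was male control 33, 1 of the livers with pancreas markers. Srebf2, which encodes SREBP2, had an r of 0.548 by ratio and 0.705 in the liver channel but a small residual SD of 0.125, and Scap had 0.324 and 0.101.

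Of the transport genes, Stard4, a cytosolic sterol carrier, had an r of 0.557 with the enzymes by ratio and 0.327 in the liver channel. Its residual SD was the second largest by ratio, at 0.33, and was 0.22 in the liver channel. Its log2 ratio was 2.14, 1.97, 1.87, 1.98 and 1.95 in female UV-Titan livers and 1.37, 2.62 and 1.57 in female control livers, so that the 3 female controls held both the highest and the lowest Stard4 value of the 16 livers. In males it was 2.01, 1.93, 1.78 and 1.52 in male UV-Titan livers and 2.07, 1.72, 1.75 and 2.35 in male control livers. The 2 further Stard4 probes, both dimmer, had an r of 0.168 and 0.021 with the brightest probe. Npc1, which moves sterols out of lysosomes, had an r of -0.125 with the enzyme mean, and Soat2, which esterifies cholesterol, 0.056.

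**Figure D2:**
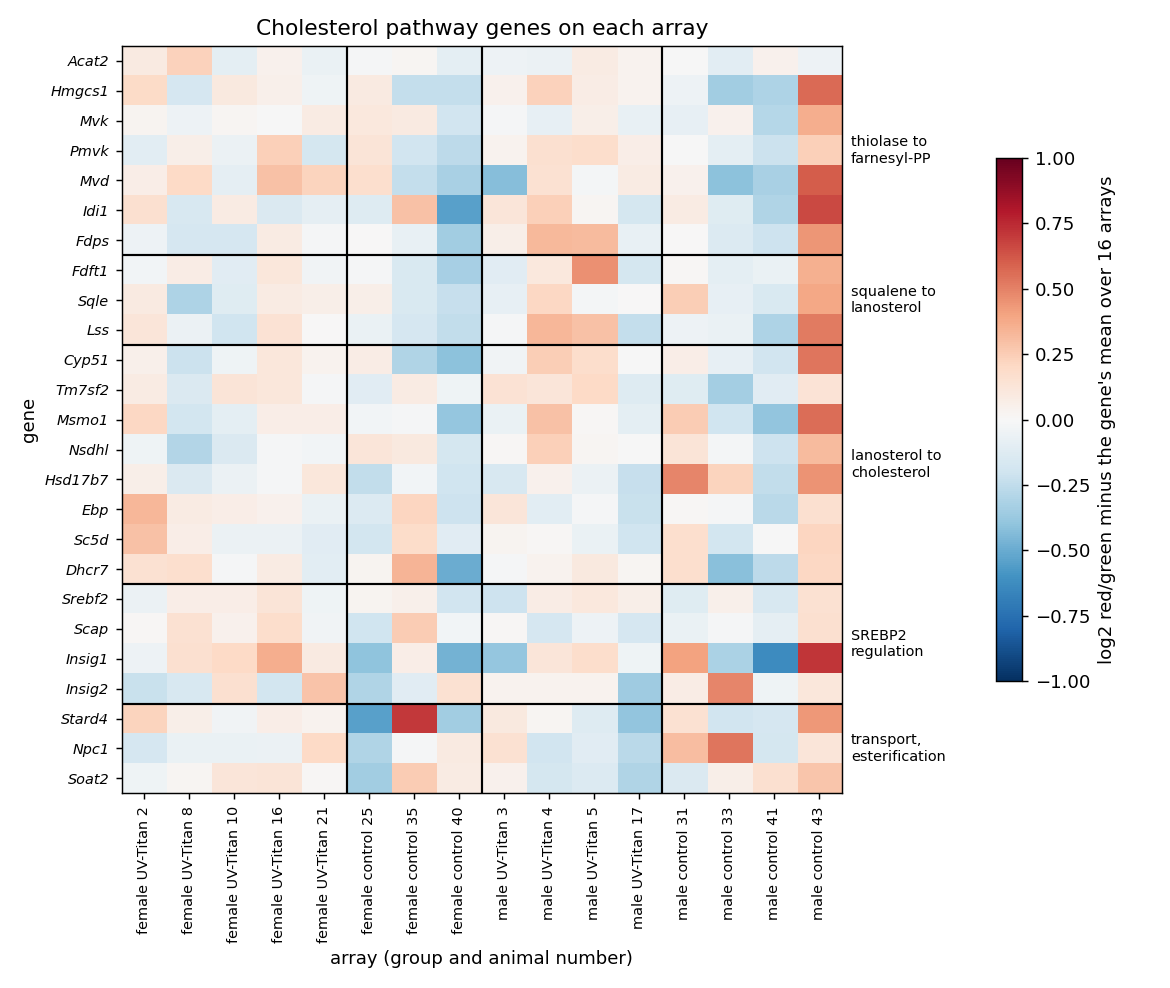
Log2 ratio of liver over reference minus each gene's own mean over the 16 arrays (colour), for the 25 tested genes (rows, in the order of the route) on each array (columns, by group). The column of male control 43 is above the mean for nearly all enzymes, those of female control 40 and male control 41 are below it for most, and Acat2, Insig2 and Npc1 do not share this order.

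The mean log2 ratio of the 18 enzymes ranged from 0.729 in female control 40 to 1.37 in male control 43. By group it was 1.01 ± 0.069 in female UV-Titan livers (SD, n = 5), against 0.901 ± 0.149 in female control livers (SD, n = 3). It was 1.03 ± 0.101 in male UV-Titan livers, against 1.02 ± 0.261 in male control livers (SD, n = 4 each). The means of the male groups thus nearly coincided while the male controls spanned 0.786 to 1.37. Male control 43 and male control 41 differed by a median of 0.59 over the enzymes by ratio, 0.58 by liver signal and -0.0028 by reference signal. By ratio, 17 of 18 enzymes were higher in male control 43. Both livers were picked as the male controls with the highest and lowest mean of these same enzymes, so the direction by ratio was set by the choice. Of the 18 enzymes, 11 had their highest log2 ratio of the 16 arrays in male control 43, against 4.26% of all genes, and 10 had their highest liver signal there. This liver was singled out here for its high mean of these same enzymes.

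**Figure D3:**
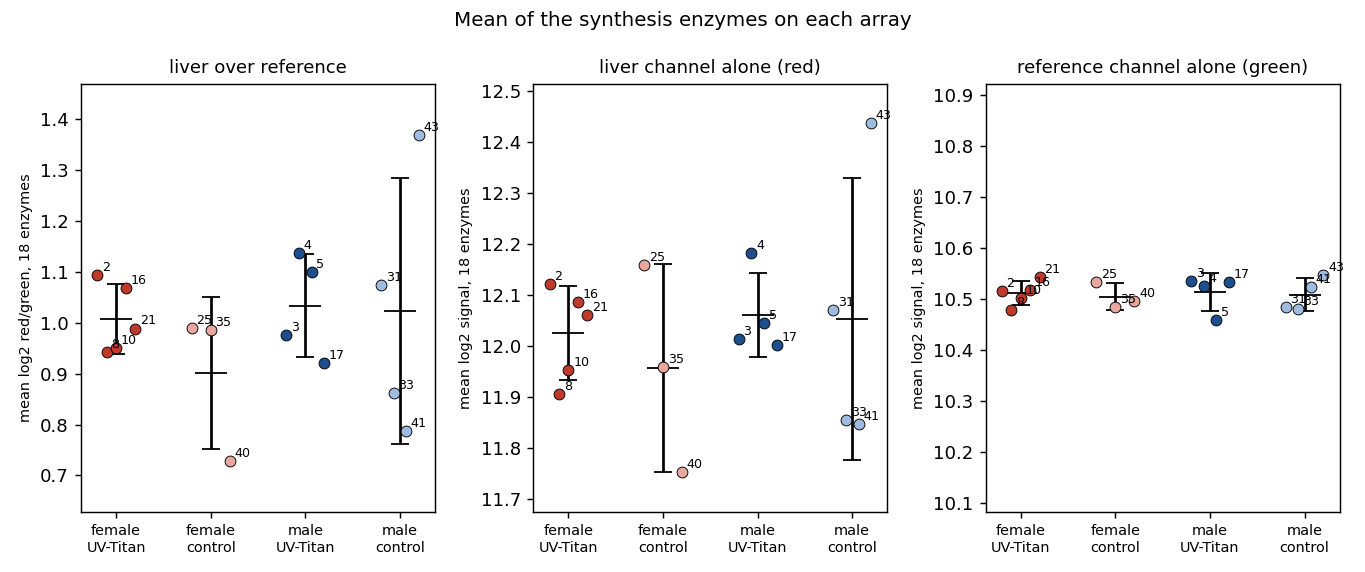
Mean over the 18 synthesis enzymes on each array (points, labelled with the animal number) by group, with the group mean and SD (bars), as log2 ratio of liver over reference, log2 liver signal and log2 reference signal. The 3 panels have the same y-axis length. Male control 43 is highest and female control 40 lowest in both liver panels, while the reference signals of all arrays lie close together.

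The median r of the enzyme pairs was lower without some of these livers. Without male control 43 and female control 40, it was 0.325 by ratio and 0.293 in the liver channel. By ratio 81.7% of enzyme pairs were above 0, while all gene pairs had a median of 0.014 and 51.5% above 0. These 2 arrays were picked as farthest from the median in the mean of these same enzymes, a choice that favours a lower r. Without male control 43 alone, the median r of the enzyme pairs was 0.41 by ratio. In the 9 UV-Titan livers it was 0.354 by ratio and 0.265 in the liver channel, against 0.726 and 0.685 in the 7 control livers and 0.592 by ratio in the 6 control livers without male control 43. The difference between UV-Titan and control livers in this value was not tested. In males it was 0.737 and in females 0.402, over 8 arrays each. Without the 3 arrays with pancreas or muscle markers it was 0.644. With slide means subtracted it was 0.618 both by ratio and in the liver channel. Among the genes closest to the enzyme mean, Msmo1 had an r of 0.912, Fdps 0.824, Nsdhl 0.798 and Lss 0.780 without male control 43 and female control 40, while Mvk had 0.256, Mvd 0.399 and Srebf2 0.111.

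Marker lists of liver cell types were set beside the enzymes over the same arrays, as a description. The mean of the 12 hepatocyte markers had an r with the enzyme mean of 0.128 by ratio and 0.492 in the liver channel. The 11 exocrine pancreas markers had -0.103, the 8 muscle markers 0.115, the 7 megakaryocyte markers 0.418 and the 8 erythroid markers -0.240 by ratio. The 8 granulocyte markers had 0.117 by ratio and 0.529 by liver signal. Macrophage, endothelial, bile duct and stellate cell lists lay between -0.0257 and 0.171 by ratio. In bulk liver, fewer cells of a type and less RNA per cell cannot be told apart, and the part of these cell types in the shared variation was not tested.

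Promoters are shown because SREBP2 targets are known to share short motifs near their starts and the enzymes varied together. RefSeq promoter windows (GRCm38.p6, 250 bases before to 50 after a transcript start) were at hand for 20 of the 26 genes, 15 of them enzymes, with several starts for some. The NF-Y motif CCAAT, searched on both strands, was found in 14 of the 15 enzymes, against 41.1% of all 27025 genes (37.4% of windows). Acat2 was the enzyme without it. The Sp1 motif GGGCGG was likewise found in 14 of 15, against 38.2% of genes. The sterol regulatory element TCACNCCAC was found in Hmgcs1 alone, with its first base at -137 from the transcript start, against 1.44% of genes. No match says only that these letters are absent from the window, and a match is not a shown binding site. Insig2, which did not follow the enzymes, also held CCAAT, with 3 matches in 1 of its windows, and Insig1 held 1.

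The 150 bases before the start are printed for the 6 enzymes with the highest r among those with a window, and for Acat2, which had the lowest. Capitals mark CCAAT, or its reverse complement ATTGG, and the sterol regulatory element of Hmgcs1. The positions are chr8:64733579-64733728 for Msmo1 (minus strand); chrX:72918371-72918520 for Nsdhl (plus strand); chr5:4104698-4104847 for Cyp51 (minus strand). They are chr10:76531455-76531604 for Lss (plus strand), chr13:119690201-119690350 for Hmgcs1 (plus strand), chr13:8885456-8885605 for Idi1 (plus strand) and chr17:12960726-12960875 for Acat2 (minus strand).
Msmo1: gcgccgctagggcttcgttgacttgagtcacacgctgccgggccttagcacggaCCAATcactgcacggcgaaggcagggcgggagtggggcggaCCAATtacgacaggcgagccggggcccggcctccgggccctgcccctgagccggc
Nsdhl: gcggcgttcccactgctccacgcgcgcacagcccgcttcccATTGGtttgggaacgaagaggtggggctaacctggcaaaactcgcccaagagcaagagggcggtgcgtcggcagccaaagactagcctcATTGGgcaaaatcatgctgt
Cyp51: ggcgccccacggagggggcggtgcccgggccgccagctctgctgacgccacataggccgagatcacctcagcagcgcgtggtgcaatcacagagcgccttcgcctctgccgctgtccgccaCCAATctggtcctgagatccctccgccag
Lss: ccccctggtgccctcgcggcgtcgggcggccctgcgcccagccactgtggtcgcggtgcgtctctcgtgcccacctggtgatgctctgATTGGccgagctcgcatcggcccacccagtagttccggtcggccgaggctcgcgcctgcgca
Hmgcs1: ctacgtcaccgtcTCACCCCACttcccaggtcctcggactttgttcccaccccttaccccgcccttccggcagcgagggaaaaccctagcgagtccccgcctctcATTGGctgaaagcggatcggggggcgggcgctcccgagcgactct
Idi1: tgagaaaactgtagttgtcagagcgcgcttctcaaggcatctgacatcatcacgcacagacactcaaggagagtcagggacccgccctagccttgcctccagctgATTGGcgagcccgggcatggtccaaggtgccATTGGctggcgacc
Acat2: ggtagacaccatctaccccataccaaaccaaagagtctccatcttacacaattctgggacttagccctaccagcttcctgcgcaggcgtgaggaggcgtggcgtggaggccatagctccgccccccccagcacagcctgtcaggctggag

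Msmo1 and Idi1 each carry 2 CCAAT matches in the stretch shown, and Msmo1 has another at -160. Nsdhl carries 2 in the stretch and 2 just after the start. Cyp51 and Lss carry 1 each, at -29 and -62. The CCAAT match of Hmgcs1 at -45 lies between its start and its sterol regulatory element.

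**Figure D4:**
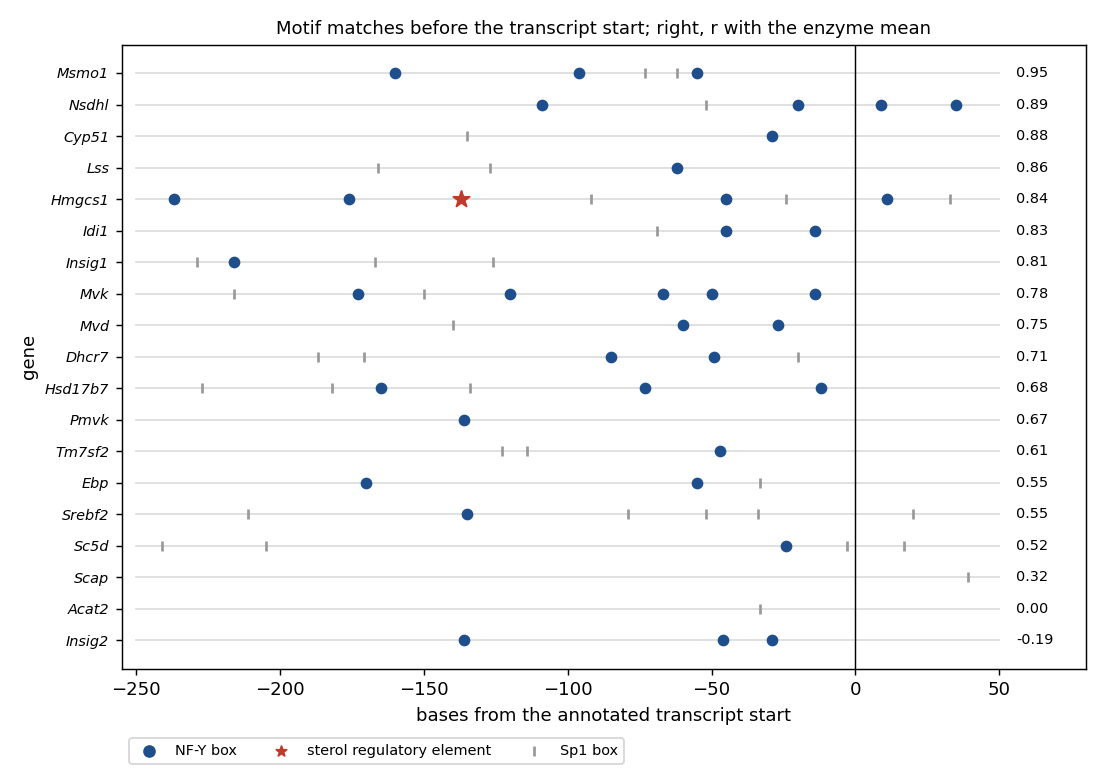
Matches to the NF-Y (circles), Sp1 (ticks) and sterol regulatory element (star) motifs from 250 bases before to 50 bases after a RefSeq transcript start (x axis) for the 19 tested genes with a window, sorted by their r with the enzyme mean (right). Where a gene has several windows, the one with most CCAAT matches is drawn. Of the enzymes, Acat2 alone has no CCAAT match.

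The exposure comparison asked whether prenatal UV-Titan changed these genes in female or in male offspring. In females, none of the 25 tested genes passed the threshold (limma, Benjamini-Hochberg adjusted p of 0.05 over all genes), as was the case for 0% of all 18707 genes, and 0 of the 25 had an unadjusted p under 0.05, against 6.75% of all genes. The log2 ratio was higher in UV-Titan livers for 24 of the 25 genes, with a median difference of 0.097, while 58.7% of all genes were higher with a median of 0.021. In the liver channel alone, 18 of 25 were higher, with a median of 0.065, against 49.8% of all genes and a median of -0.00084. The differences ran from -0.12 for Nsdhl to 0.42 for Insig1, with standard errors of 0.074 to 0.23. By log2 ratio, none had every UV-Titan liver above every control liver, where 3.23% of all genes did, and none had every one below, where 1.01% did. In the liver channel, Mvd and Lss had every UV-Titan liver above every control liver. The lowest UV-Titan and highest control values were 10.284 and 10.256 for Mvd, and 10.1096 and 10.1091 for Lss. The share of all genes that did so in the liver channel was not counted. Insig1 was closest to the threshold, at 0.41 ± 0.15 in female UV-Titan livers (SD, n = 5) against -0.0048 ± 0.292 in female control livers (SD, n = 3), a difference of 0.42 ± 0.23 (SE, limma adjusted p = 0.794). A second Insig1 probe gave 0.38. Female control 35, at 0.33, lay within the UV-Titan range and the other controls below it.

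The female median moved with female control 40 and 35. Without female control 40 it was 0.043, without female control 35 it was 0.16, and with slide as a block 0.053. The direction of single genes moved as well. Without female control 25, and likewise without female control 40, 19 of 25 genes kept their sign, against 25 without female control 35. Leaving out 1 female UV-Titan liver at a time, 22 to 25 kept it. With the log2 ratios the authors deposited, 20 of 25 did. Many of these genes varied together, so the 24 higher genes are not separate observations. Within the 3 slides that held a female of each group, 23, 14 and 21 of 25 genes were higher in the UV-Titan liver, and the median differences were 0.20, 0.020 and 0.11. Over the same contrast all 12 hepatocyte markers had a higher log2 ratio in female UV-Titan livers (median 0.60), against a median of 0.066 in the liver channel alone. All 7 megakaryocyte markers were higher as well (mean log2 ratio of 2.40 to 2.65 in female UV-Titan livers and 1.88 to 2.04 in female control livers). The 8 granulocyte markers were all higher too, with a median of 0.52. None of these markers passed the threshold, and their part in the female values was not tested.

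In males, none of the 25 genes passed, again against 0% of all genes, and 11 were higher and 14 lower in UV-Titan livers, with a median of -0.027 against 0.016 over all genes. Without the 3 arrays with pancreas or muscle markers the median was -0.079, and 18 of 25 genes kept their sign. By log2 ratio, none lay wholly above, where 1.9% of all genes did, or wholly below, where 1.08% did. An unadjusted p under 0.05 was found for 2 of 25 by ratio, Hsd17b7 and Npc1, against 4.95% of all genes. In the liver channel it was found for 3 of 25, Soat2, Npc1 and Tm7sf2, against 3.25% of all genes. Hsd17b7, a ketoreductase of the late route, was at 1.28, 1.49, 1.38 and 1.21 in male UV-Titan livers and 1.93, 1.67, 1.19 and 1.89 in male control livers. Male control 41 lay below all UV-Titan livers and the other controls above them. The difference was -0.33 ± 0.13 (SE, limma adjusted p = 0.950), and -0.19 in the liver channel alone. A second Hsd17b7 probe gave -0.23, and the value without the 3 arrays with pancreas or muscle markers was -0.22. Npc1 was at 1.07, 0.72, 0.80 and 0.65 in male UV-Titan livers and 1.22, 1.45, 0.74 and 1.04 in male control livers. Its difference was -0.30 ± 0.13 (SE, limma adjusted p = 0.950), -0.19 without male control 33, which was the highest, and -0.077 without those 3 arrays. Male UV-Titan 3 and 5 lay within the control range of Npc1. Over the same contrast all 11 pancreas markers were lower in male UV-Titan livers, with a median of -1.30, and their part in these values was not tested. Soat2 was at 1.88, 1.67, 1.71 and 1.54 in male UV-Titan livers and 1.70, 1.90, 2.00 and 2.12 in male control livers. Its difference was -0.23 ± 0.12 by ratio and -0.50 ± 0.18 in the liver channel (SE, limma adjusted p = 0.950 by ratio and 1.00 in the liver channel). The groups overlapped, with male UV-Titan 17 lowest and male control 43 highest, and the value by ratio was -0.36 without those 3 arrays. The largest difference upward was that of Tm7sf2, at 3.50, 3.48, 3.55 and 3.23 in male UV-Titan livers and 3.23, 3.02, 3.24 and 3.49 in male control livers. It was 0.19 ± 0.098 by ratio and 0.27 ± 0.13 in the liver channel (SE, limma adjusted p = 0.950 by ratio and 1.00 in the liver channel). Male control 43 lay within the UV-Titan range of Tm7sf2, as did male control 31 and 41.

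The male values differed in direction between slides. On 1 slide male UV-Titan 3 was lower than male control 43 for 22 of 25 genes, with an enzyme median of -0.43, on the next male UV-Titan 4 was higher than male control 41 for 21 of 25, with an enzyme median of 0.37, and on another male UV-Titan 5 was higher than male control 31 for 12 of 25, at 0.032. Insig1 differed by -1.10, 0.75 and -0.23 over these same pairs. Leaving out each array in turn moved the male median between -0.12 and 0.10. These were the values for pairs of single livers and have no test.

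Averaged over the sexes, 15 genes were higher and 10 lower in UV-Titan livers with a median of 0.051, while 60.7% of all genes were higher with a median of 0.019. Without the 3 arrays the median of the 25 was 0.025. None passed, against 0% of all genes, and 0 had an unadjusted p under 0.05, against 7.08% of all genes. The female effect minus the male one passed for 0 of 25 genes, against 0% of all genes, and 1 of 25 had an unadjusted p under 0.05, against 4.30% of all genes. By ratio that gene was Hsd17b7, at 0.48 ± 0.18 (SE, limma adjusted p = 0.979), and Insig1 had 0.50 ± 0.33 with the same adjusted p. In the liver channel it was Mvd instead, also 1 of 25, against 2.84% of all genes. The second Insig1 probe differed by 0.38 in females and by 0.21 in males, where the probe used gave -0.076. Male against female, none of the 25 genes passed, where 0.0481% of all genes did, and none had an unadjusted p under 0.05, where 4.30% of all genes did. The male log2 ratio was higher for 15 genes, with a median difference of 0.082, or 0.033 without the 3 arrays, and the largest was that of Cyp51 at 0.20 ± 0.099 (SE, limma adjusted p = 0.977).

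**Figure D5:**
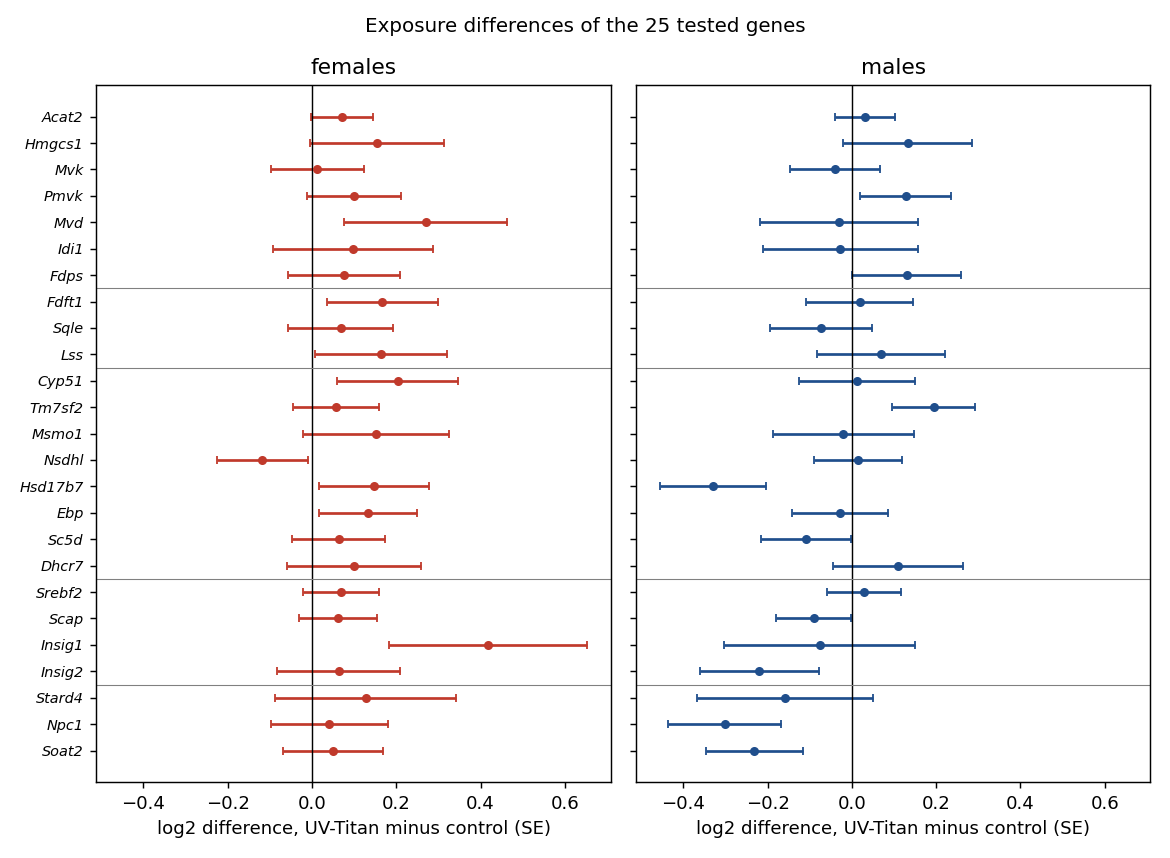
Difference in log2 ratio between UV-Titan and control livers (x axis, points, with standard errors as bars) for the 25 tested genes (y axis, in the order of the route), in females on the left and males on the right. In females 24 of 25 points lie to the right of 0 and in males 11, and none passes the threshold.

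Lists of related sterol and fat metabolism held no gene that passed. None of 17 other sterol and isoprenoid genes, 17 genes of sterol uptake, efflux and storage, 11 of bile acid synthesis or 16 of fatty acid synthesis passed in any exposure comparison. Genes are named from each list by the smallest unadjusted p of the averaged comparison, all with limma adjusted p of at least 0.497. Of the isoprenoid genes, Pdss1, which makes the side chain of ubiquinone, had an averaged difference of -0.15 ± 0.070 and Dhdds, which acts in dolichol synthesis, 0.13 ± 0.060 (SE). Mbtps2, a protease that cuts SREBPs, had -0.087 ± 0.045. Abcg5 and Abcg8, the paired sterol exporters into bile, had 0.29 ± 0.12 each, Osbp, an oxysterol-binding protein, -0.13 ± 0.056 and Nr1h3, which encodes LXRα, 0.13 ± 0.082. Of the bile acid genes, Cyp7b1, the oxysterol hydroxylase, had 0.32 ± 0.10, Baat, which conjugates bile acids, 0.61 ± 0.29, Slc27a5 0.17 ± 0.091 and Hsd3b7 0.082 ± 0.055. Of the fatty acid genes, Me1, which supplies NADPH, had -0.27 ± 0.092, the desaturase Fads2 0.24 ± 0.12, the elongase Elovl5 0.22 ± 0.12 and Mlxipl, which encodes ChREBP, 0.16 ± 0.094. Over the 16 arrays, the mean of the fatty acid list had an r with the enzyme mean of 0.447 by ratio and 0.481 in the liver channel. The other sterol and isoprenoid list had 0.335 by ratio, the uptake and storage list 0.210 and the bile acid list 0.044.

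The genes outside the 26 that varied most like the enzyme mean were ranked by r over the 16 arrays by ratio. All 18 enzymes were in the mean, so the r of an enzyme is raised by the enzyme itself. Of all genes, 18 had an r over 0.8, and 9 of these were among the 26, all but Insig1 being enzymes in the mean. Those named by rank that also had an r over 0.7 in the liver channel were the transcript CJ042244 (0.948 by ratio and 0.881 in the liver channel), Acsl3, an acyl-CoA synthetase (0.827 and 0.755), Erg28, a scaffold of the sterol C4-demethylation enzymes in yeast (0.798 and 0.717), and Npr3, a natriuretic peptide clearance receptor (0.839 and 0.709). Others ranked as high by ratio but lower in the liver channel: the transcripts TC1410591 (0.907 and 0.406) and TC1539980 (0.857 and 0.163), Olfr401 (0.861 and 0.405), Sfrs10 (0.83 and 0.279) and Csgalnact1 (0.812 and -0.088).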

How the data were processed

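Liver RNA (200 ng) from each of 16 animals was hybridised with a universal reference RNA on Agilent mouse 4 x 44 arrays, per the labels' protocols. The authors deposited spot intensity values from Feature Extraction 9.5.3.1 per the labels (9.5.1.1 per the file headers): mean signals and local backgrounds as scanned, and processed signals. They also deposited a table of log2 ratios. Its normalisation is not given in the sources used here, and a comparison of its columns with log ratios of the mean signals gave log2 of red over green (r 0.992 to 0.994, slope 0.981 to 0.985, column medians -0.045 to -0.0375). For liver the labels give Cy3 in one field and Cy5 in the protocol. Hepatocyte markers were brighter in red on all 16 arrays. The log2 ratio of red over green of a Y-linked gene, Ddx3y, was 1.61 to 2.03 in males and -2.20 to -1.39 in females. Red was therefore taken as liver. No dyes were swapped.

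With limma 3.58.1 (R 4.3.3), normexp with an offset of 50 removed background and within-array loess, with no weight on control spots, normalised the ratios. Spots marked as outliers (90 to 135 per array) were left out and no spot was saturated. Testing required a probe well above background in red on at least 3 arrays. Names came from accessions matched to RefSeq (GRCm38.p6) for 12165 genes, symbols for 1872, synonyms for 946, and the array file for 3724. A model of the 4 group means with 12 residual degrees of freedom gave moderated tests, adjusted by Benjamini-Hochberg over all genes. Array positions are in build mm7: the probe of Idi1 is placed on chromosome 2 there, while RefSeq lists the gene on chromosome 13. The steps were tested on simulated data.

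The members and lists were chosen with earlier results of these data known. All members are named. From each of 4 related lists the 4 genes with the smallest unadjusted p of the averaged exposure comparison are named, and outside the members the 10 genes with the highest r to the enzyme mean. Of the genes these rules name, 2 are not reported here. Alternatives were each channel alone, Agilent's processed signals, no background correction, the deposited table, other filters, all probes of a gene, slide or scan day as a block, array weights and arrays left out. Arrays lay on 5 slides scanned on 4 days.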

Additional observations from a re-analysis of the deposited data

Results flagged for a closer look

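Over 78 sets of 4 or 5 livers (the 25 genes and the enzyme mean in each group of that size), 3 held a liver whose gap to the nearest of the others was a larger part of the group's range than Dixon's 95% critical value. Chance marks about 1 in 20 such sets. All 3 were single genes in male UV-Titan livers. Nsdhl was at 0.69 in male UV-Titan 4, against 0.44 to 0.47 in the other 3 livers. Srebf2 was at -1.23 in male UV-Titan 3, against -0.96 to -0.92. Insig2 was at -0.34 in male UV-Titan 17, against 0.046 to 0.052. The enzyme mean held no such liver in any of these groups.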

How the results depend on the processing

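No member passed the threshold in any of the 5 comparisons under any of the alternatives run. The median r of the enzyme pairs lay between 0.501 and 0.714 under the liver channel alone, processed signals, no background correction, the deposited table, the other filters, all probes of a gene and both blocks. The 0.714 came with median centring, under which all gene pairs had a median of 0.215. It lay between 0.41 and 0.619 when each array was left out. It moved to -0.019 in the reference channel alone, and, chosen after seeing the data, to 0.325 without the 2 arrays farthest from the median and to 0.354 in UV-Titan livers alone. In the liver channel with median centring, which moved the median of all genes by 0.14 in females, the member median was 0.33 in females and 0.43 for the female minus the male effect; that difference was -0.014 in the reference channel. The other member medians moved by less than the residual SD of the per-array median, 0.143. Leaving out each array gave 0.043 to 0.16 in females, -0.12 to 0.10 in males, 0.0035 to 0.093 averaged, 0.047 to 0.20 for the female minus the male effect and -0.014 to 0.14 for male against female. The level against the reference was 0.914 for the median member and 0.87 with processed signals. In males, Hsd17b7, Npc1 and Soat2 stayed below 0 under every alternative computed for them. No paired analysis was possible because the groups share no replicate number, and slide, which holds livers of several groups, was fitted as a block. Precision is limited by 3 to 5 livers a group, with litters and ages not given for each.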
